A study of Mus musculus with 40 samples.

Results

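The Gtl2-DMR was compared at E18.5 between 5 embryos with a biallelic deletion of the IG-CGI (IG-CGIΔBi) and 7 embryos with a paternal deletion (IG-CGIΔP), a comparison in which the maternal copy is the one element that the genotypes do not share. The libraries were chosen by their labels, as those named for the Gtl2-DMR (MEG3_DMR in the labels), of stage E18.5 and of either genotype, and they make up 12 of the 40 libraries of the series. Each library holds the tail DNA of 1 mouse embryo, read by PBAT capture, in which adaptors are tagged onto DNA after bisulfite conversion and fragments of the locus are pulled out with RNA probes. In both groups the paternal IG-CGI was deleted. IG-CGIΔBi embryos lacked the maternal IG-CGI as well, whereas IG-CGIΔP embryos inherited it intact. The deletion came from LoxP sites around the IG-CGI and a Cre transgene under the germline-specific Vasa promoter in the parents, so that the allele was inherited in its deleted form. The floxed line was also bred to carry a tdTomato reporter, and the labels do not say whether these embryos carried it. Embryos are labelled by clone and number. Of the IG-CGIΔBi embryos, 3 were of clone115 and 2 of clone74, and of the IG-CGIΔP embryos 2 were of clone115 and 5 of clone74. For comparison, 2 WT embryos and 2 embryos with a maternal deletion (IG-CGIΔM), 1 of each clone and genotype, were measured in the same way at E18.5.

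The Dlk1-Dio3 domain is imprinted, so that its protein-coding genes are expressed from the paternal chromosome and its non-coding RNAs, led by Gtl2 (Meg3), from the maternal one. The IG-DMR, of which the IG-CGI is the CpG island, is methylated in sperm and on the paternal chromosome thereafter. The Gtl2-DMR lies over the promoter of Gtl2 and acquires its methylation on the paternal chromosome only after implantation, where it accompanies silencing of the gene. In bulk tail DNA the percent of methylated reads mixes both chromosomes and all cell types, and the deposited percentages do not separate the parental alleles, so methylation of 1 allele in all cells and of both alleles in some cells cannot be told apart.

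The files list CpGs of chromosome 12 between positions 109540467 and 109541075 (mm10, as named in the submitters' processing notes). RefSeq places the start of Meg3, a long non-coding RNA gene, at position 109540996 of GRCm38.p6, the assembly that mm10 names, and its end at 109571729 on the plus strand. The RefSeq promoter window of the gene (chr12:109540746-109541045, plus strand, GRCm38.p6) holds 13 CpGs, and all 13 were listed in these libraries, which shows that the listed positions count from 1 and mark the C of the plus strand. The window is printed 5′ to 3′ because its CpGs carry most of the values that follow, with the 13 CpGs in capitals.

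Meg3 promoter window: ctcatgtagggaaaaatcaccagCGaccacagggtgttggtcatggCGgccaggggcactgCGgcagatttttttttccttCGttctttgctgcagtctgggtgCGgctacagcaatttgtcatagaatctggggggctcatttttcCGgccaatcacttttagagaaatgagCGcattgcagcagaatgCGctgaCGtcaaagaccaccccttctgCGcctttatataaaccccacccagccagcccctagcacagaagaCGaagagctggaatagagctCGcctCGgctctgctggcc

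Of the 13 CpGs, 10 lie upstream of the gene's start and 3 inside the gene, at its bases 12, 32 and 37, counting its first base as 1. The stretch with these 3 CpGs (chr12:109541005-109541034, plus strand) and the stretches around the CpGs at positions 109540807 and 109540942 are shown because those CpGs recur below. In the first, capitals mark the CpGs, and in the others they mark letters that resemble a known binding site, either the ZFP57 motif TGCCGC, read here on the minus strand, or the cAMP response element TGACGTCA.
CpGs inside the gene: gaCGaagagctggaatagagctCGcctCGg
CpG at 109540807: caggggcactGCGGCAgatttttttt
CpG at 109540942: cagaatgcgcTGACGTCAaagaccaccc

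On either strand, the letters TGCCGC occur in 11.6% of 32851 RefSeq promoter windows of the same length and TGACGTCA in 1.79%. The other letters searched, TATAAA on both strands (13.6% of windows) and CCAAT on both strands (37.4%), were also found in this window, TATAAA as a pair of overlapping matches, and neither holds a CpG. The matches describe the sequence only.

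One IG-CGIΔP embryo stood apart from the others of its label in another library. Its IG-DMR library, that of clone115 embryo 8, had a mean of 95.9%, against 2.31% to 24.2% in the other 6 IG-CGIΔP embryos, 49.7% and 52.1% in WT and 76.1% and 86.2% in IG-CGIΔM embryos. Whether the label of this embryo is right was not tested, which limits what its values below stand for. The IG-DMR libraries used at this stage were of WT, IG-CGIΔM and IG-CGIΔP embryos. The paper ascribes the full methylation of the IG-CGI in IG-CGIΔM embryos to the missing maternal copy. The IG-DMR means may therefore mix the parental chromosomes differently in each genotype, which was not checked here. Several differences in the Gtl2-DMR are also given without clone115 embryo 8.

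Methylation of the Gtl2-DMR was low in all IG-CGIΔBi embryos and ranged more widely in IG-CGIΔP embryos, but no difference between the groups passed the test. The level of an embryo is the mean percent over its listed CpGs, of which IG-CGIΔBi libraries had 16 to 21 and IG-CGIΔP libraries 17 to 25. No read numbers accompany the percentages, so the depth behind each value is not given, and sparsely and deeply read CpGs had equal weight in the mean. As set out below, values inside the gene came in fine steps that need many reads. Those upstream came in coarse steps, as few reads give. The levels of the IG-CGIΔBi embryos were 0.0359% in clone115 embryo 6, 0.754% in clone115 embryo 2, 1.0% in clone74 embryo 9, 5.01% in clone74 embryo 1 and 10.5% in clone115 embryo 5. Those of the IG-CGIΔP embryos were lowest at 0.151% in clone74 embryo 7, had a median of 7.75% in clone74 embryo 4 and were highest at 28.1% in clone74 embryo 3. The groups overlapped over most of the IG-CGIΔBi range: 3 of 7 IG-CGIΔP embryos lay above every IG-CGIΔBi embryo, and 1 of 5 IG-CGIΔBi embryos lay below every IG-CGIΔP embryo. The means were 3.45% ± 4.37 (SD, n = 5) and 12.5% ± 11.6 (SD, n = 7), which left a difference of -9.09 percentage points with a standard error of 4.80 (exact permutation test, two-sided, p = 0.143, Benjamini-Hochberg adjusted p = 0.291 over 8 tests). The difference was smaller than the spread among IG-CGIΔP embryos, and it was -6.56 percentage points without clone115 embryo 8, the second highest IG-CGIΔP embryo with 27.7% (exact two-sided permutation test, p = 0.236). It was -8.02 percentage points within clone74 and -12.6 within clone115, and -9.92 when both were combined and labels were exchanged only within a clone (exact permutation test, p = 0.152). Clone115 held 2 IG-CGIΔP embryos, embryo 8 and embryo 1 with 4.91%, against an IG-CGIΔBi mean of 3.75% in that clone. Most of the level of embryo 1 came from 1 listed position at 100%, 109540476. The difference within clone115, and its part in the combined value, thus rested largely on embryo 8. The WT embryos had 26.4% and 26.8%, and the IG-CGIΔM embryos 30.2% and 42.3%. All 5 IG-CGIΔBi embryos lay below these 4, whereas 2 of the 7 IG-CGIΔP embryos had means above WT over their own listed CpGs. Over the 9 CpGs listed in all 12 libraries neither reached the WT embryos, at 27.9% and 29.8%: clone115 embryo 8 had 24.0% and clone74 embryo 3 had 15%.

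**Figure D1:**
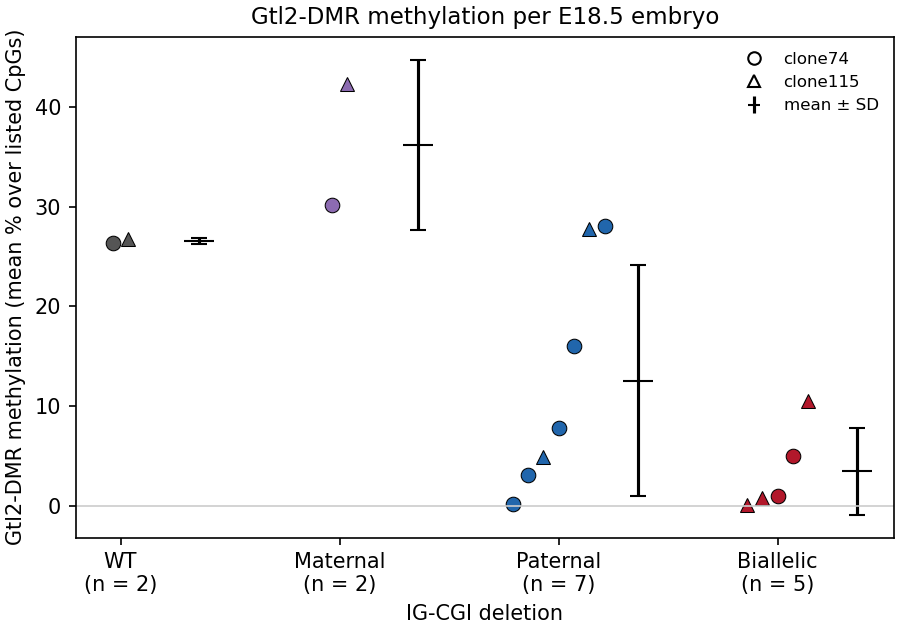
Gtl2-DMR methylation (y axis, mean percent over the listed CpGs) of each E18.5 embryo by IG-CGI genotype (x axis), with circles for clone74, triangles for clone115 and bars for the mean ± SD. The 5 biallelic embryos lie between 0.0359% and 10.5% and the 7 paternal embryos between 0.151% and 28.1%, with 2 of the latter slightly above the WT embryos on CpGs that differ between libraries.

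Most CpGs of IG-CGIΔBi embryos were listed at exactly 0, and fewer were so in IG-CGIΔP embryos on average. Pooled over libraries, 74 of 91 CpG values were at 0 in IG-CGIΔBi (81.3%), 16 were intermediate and 1 was at 100. In IG-CGIΔP, 88 of 141 were at 0 (62.4%), 47 were intermediate and 6 were at 100. Of 40 WT values, by contrast, 5 were at 0, 34 intermediate and 1 at 100. With few reads a partly methylated CpG can be listed at 0 or 100, so these shares depend on depth as well as on methylation. Over both groups, 40 of 193 values upstream of the gene were above 0, against 30 of 36 at the CpGs inside it. CpGs of 1 library share molecules, so the groups were compared on the share of each embryo. CpGs at 0 made up 95%, 93.8%, 85.7%, 70.6% and 58.8% of the listed CpGs in the IG-CGIΔBi embryos, and between 19.0% and 88% in the IG-CGIΔP embryos, with a median of 72.2%. The lowest IG-CGIΔBi share lay well inside the IG-CGIΔP range, and 3 of 7 IG-CGIΔP embryos had a smaller share than any IG-CGIΔBi embryo. The means were 80.8% ± 15.7 (SD, n = 5) and 61.8% ± 25.0 (SD, n = 7), a difference of 19.0 percentage points with a standard error of 11.8, above the SD of the IG-CGIΔBi embryos and below that of the IG-CGIΔP embryos (exact two-sided permutation test, p = 0.172, adjusted p = 0.291). Without clone115 embryo 8 it was 15.1 (exact two-sided permutation test, p = 0.292). Leaving out clone74 embryo 3 instead gave 11.8 (exact permutation test, p = 0.284).

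Intermediate CpGs, above 0% and below 100%, made up 18.0% ± 13.7 (SD, n = 5) of the CpGs in IG-CGIΔBi and 33.9% ± 21.2 (SD, n = 7) in IG-CGIΔP embryos. The difference was -15.8 percentage points (exact permutation test, p = 0.182, adjusted p = 0.291), and -9.57 without clone74 embryo 3 (exact permutation test, p = 0.297). In WT the share was 84.2% and 85.7%, and no IG-CGIΔP embryo reached it, the highest being clone74 embryo 3 with 71.4%. CpGs at 100% were seen in 1 IG-CGIΔBi embryo, clone115 embryo 5, at 5.88% of its CpGs, and in 4 IG-CGIΔP embryos at up to 11.1%. Their mean shares of 1.18% ± 2.63 (SD, n = 5) and 4.31% ± 4.65 (SD, n = 7) differed by -3.13 percentage points (exact permutation test, p = 0.284, adjusted p = 0.325). Part of this share came from 1 listed position, 109540476, 520 bases upstream of the gene, which was not checked against the reference sequence. It was listed in 3 IG-CGIΔP embryos, at 100% in clone115 embryo 1 and clone74 embryo 3 and at 50% in clone74 embryo 2, and in none of the IG-CGIΔBi embryos. Of the WT embryos, clone115 embryo 4 listed it, at 100%. Without it, the difference in the share at 100% was -1.84 percentage points, and without clone115 embryo 8 it was -2.0 (exact permutation test, p = 0.424).

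**Figure D2:**
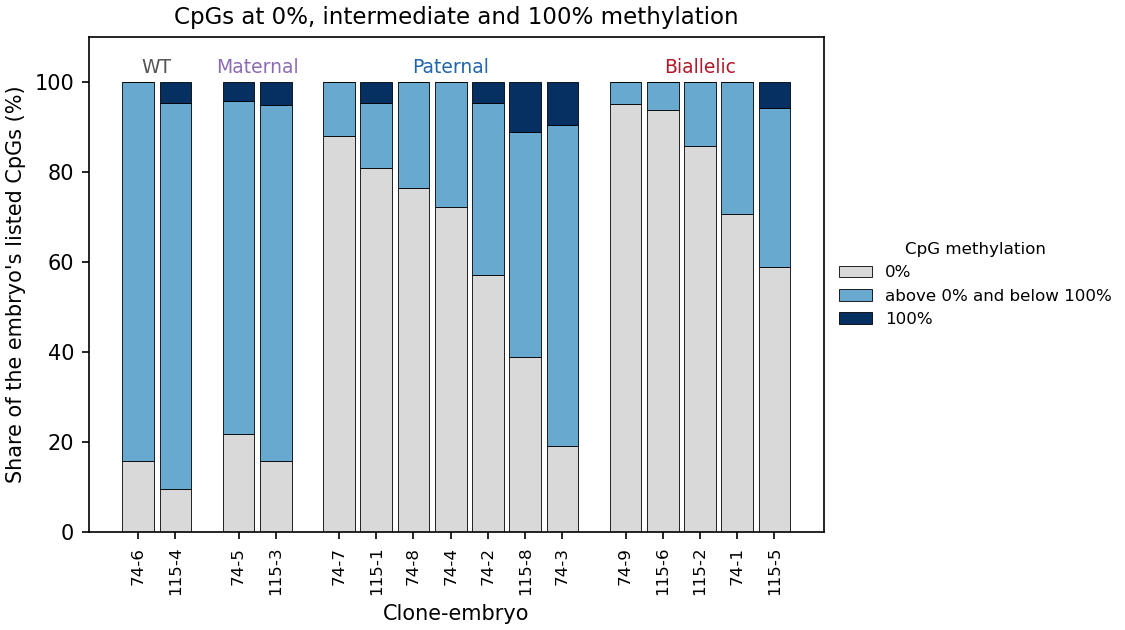
Share of the listed CpGs of each E18.5 embryo (y axis, percent) that were at 0%, intermediate or at 100% methylation, with 1 bar per embryo named by clone and number and grouped by IG-CGI deletion. CpGs at 0% take 58.8% to 95% of the biallelic bars and 19.0% to 88% of the paternal bars, whereas intermediate CpGs take 73.9% to 85.7% of the WT and maternal bars.

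The spread between embryos was smaller in IG-CGIΔBi than in IG-CGIΔP in these samples. The SD of the level was 4.37 percentage points over the 5 IG-CGIΔBi embryos and 11.6 over the 7 IG-CGIΔP embryos, a ratio of 0.377, which stayed between 0.193 and 0.426 when each embryo was left out in turn. As a test, each embryo's absolute deviation from the median of its group was compared. The deviations were taken from each group's own centre before the labels were permuted, so the p-values for the spread are approximate. The mean deviation was 2.94 percentage points in IG-CGIΔBi and 9.10 in IG-CGIΔP, and the difference of -6.16 did not pass (two-sided permutation test, p = 0.163, adjusted p = 0.291). This call depended on how the level was centred, on the CpGs used and on single IG-CGIΔP embryos. The unadjusted p was 0.0346 without clone74 embryo 4, 0.0498 without clone74 embryo 8 and 0.0455 without clone115 embryo 1 (permutation tests), and 0.310 without clone115 embryo 8. With deviations from the group mean in place of the median the difference was -6.35 (permutation test, p = 0.0240), and with only the 9 CpGs listed in all 12 libraries it was -5.48 (permutation test, p = 0.0417). Relative to their means the groups stood in the other order, with a coefficient of variation of 127% in IG-CGIΔBi and 92.5% in IG-CGIΔP.

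Along the region, methylation in IG-CGIΔBi embryos was nearly absent from the 5′ part. The listed CpGs were divided at the middle of the window from which they were taken, between the CpGs at 109540723 and 109540769. In the 5′ part, 4 of 5 IG-CGIΔBi embryos were at 0 at every listed CpG, and clone115 embryo 5 had 4.17%. The IG-CGIΔP embryos had 0% in clone74 embryos 7 and 8, a median of 11.7% in clone115 embryo 8 and a highest level of 34.8% in clone74 embryo 3. Thus 5 of 7 IG-CGIΔP embryos lay above every IG-CGIΔBi embryo, and the other two were tied with the lowest. The means were 0.833% ± 1.86 (SD, n = 5) and 12.3% ± 11.7 (SD, n = 7), and the difference was -11.5 percentage points with a standard error of 4.49 (exact two-sided permutation test, p = 0.0631, adjusted p = 0.291). Taking each embryo's median over its CpGs gave -3.21 (exact permutation test, p = 1). Without position 109540476, which no IG-CGIΔBi library lists, the difference of means was -7.36 (exact permutation test, p = 0.134). That position was the only one above 0 in the 5′ part of clone115 embryo 1. Without clone74 embryo 7, or without embryo 8 of that clone, both at 0 in the 5′ part, it was -13.5 (exact permutation test, p = 0.0195 each).

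In the 3′ part, the levels were 4.59% ± 5.29 (SD, n = 5) in IG-CGIΔBi and 12.6% ± 13.5 (SD, n = 7) in IG-CGIΔP. The difference was -8.02 percentage points (exact permutation test, p = 0.246, adjusted p = 0.325), and -4.16 without clone115 embryo 8, which had 35.8% (exact permutation test, p = 0.411). Whether the genotypes differed more in one part than in the other was tested on each embryo's 3′ level minus its 5′ level. These were 3.76 ± 3.90 percentage points (SD, n = 5) in IG-CGIΔBi and 0.311 ± 12.7 (SD, n = 7) in IG-CGIΔP, and their difference of 3.45 was within the spread (exact two-sided permutation test, p = 0.586, adjusted p = 0.586). It turned to -0.662 without position 109540476 (exact permutation test, p = 0.920), to -3.52 with the median over CpGs (exact permutation test, p = 1) and to 7.41 without clone115 embryo 8 (exact permutation test, p = 0.0909). It was 1.58 without clone74 embryo 3 and 1.05 without clone115 embryo 1. Its sign differed between the clones, with 6.22 within clone74 and -1.86 within clone115. Within clone115 the IG-CGIΔP value was the mean of 24.1 in embryo 8 and -14.1 in embryo 1, so that sign rests on single embryos.

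The 3 CpGs inside Meg3, at positions 109541007, 109541027 and 109541032, were listed in all 12 libraries and gave finer values than the rest. Over both groups, 30 of their 36 values were above 0, of which 22 were below 10%, and the smallest was 0.234%. Upstream of the gene, 40 of 193 values were above 0, the smallest was 11.1% and 0 were between 0 and 10%. A percent as low as 0.234% needs many reads, whereas the upstream values came in the coarse steps that few reads give. The levels rest mostly, and the 5′ part wholly, on these coarser upstream values. Within most embryos of both groups the 3 CpGs had nearly the same percent. Their range was at most 1.17 percentage points in IG-CGIΔBi embryos and had a median of 1.06 in IG-CGIΔP embryos. The widest ranges were 11.7 in clone115 embryo 8 and 6.51 in clone74 embryo 3. These CpGs lie within 1 short stretch, printed above, and may share reads.

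In the IG-CGIΔBi embryos the mean over the 3 CpGs was 0% in clone74 embryo 9, 0.192% in clone115 embryo 6, 0.519% in clone115 embryo 2, 3.73% in clone115 embryo 5 and 8.93% in clone74 embryo 1. In IG-CGIΔP it was 1.04% in clone74 embryo 8, 1.07% in clone115 embryo 1, 1.26% in clone74 embryo 7, 8.47% in clone74 embryo 2, 13.6% in clone74 embryo 3, 23.6% in clone74 embryo 4 and 35.0% in clone115 embryo 8. Thus 3 of 5 IG-CGIΔBi embryos lay below every IG-CGIΔP embryo, and 3 of 7 IG-CGIΔP embryos above every IG-CGIΔBi embryo, with the others intermixed. At each of the 3 CpGs, 7 of 7 IG-CGIΔP embryos had a value above 0, against 4, 2 and 3 of 5 IG-CGIΔBi embryos in the order of position. In IG-CGIΔP clone115 embryo 1 and clone74 embryos 7 and 8 these values were at most 2.51%. No rate of failed conversion or read error was available, so values this close to 0 may not reflect methylation. The order of the lowest embryos rests on such values as well. With these CpGs alone the difference between the means was -9.33 percentage points (exact permutation test, p = 0.172), or -5.50 without clone115 embryo 8 (exact permutation test, p = 0.234), and with only the CpGs upstream of the gene it was -8.93 (exact two-sided permutation test, p = 0.159). The division at the gene's start was chosen after the values were seen. The WT embryos had 30.3% and 41.3% over the 3 CpGs, above 6 of the 7 IG-CGIΔP embryos and all 5 IG-CGIΔBi embryos.

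The embryos were ordered differently by the CpGs inside the gene and by those upstream. Clone74 embryo 4 (IG-CGIΔP) had 23.6% inside the gene and 4.57% upstream, where 2 of its 15 CpGs were above 0. Clone74 embryo 3 (IG-CGIΔP) was the reverse, with 13.6% inside and 30.5% upstream, and 14 of its 18 upstream CpGs above 0. Among IG-CGIΔBi embryos, clone74 embryo 1 had 8.93% inside and 4.17% upstream, and clone115 embryo 5 had 3.73% inside and 11.9% upstream. The embryo with the highest level of a group therefore depended on which of the CpGs were averaged.

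**Figure D3:**
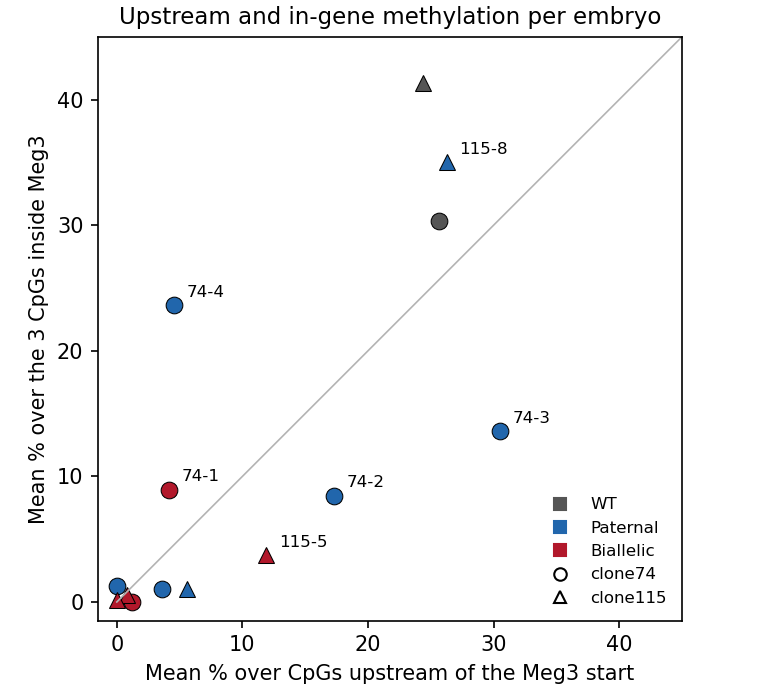
Mean percent over the 3 CpGs inside Meg3 (y axis) against the mean percent over the listed CpGs upstream of its start (x axis), with 1 point per E18.5 embryo, colour for the IG-CGI genotype, shape for the clone and a grey line where both are equal. Paternal embryos lie far from the line on both sides, such as clone74 embryo 4 (4.57% upstream, 23.6% inside) and clone74 embryo 3 (30.5% upstream, 13.6% inside), and the biallelic embryos reach at most 11.9% upstream and 8.93% inside.

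CpG by CpG, 29 positions were listed in at least 1 of the 12 libraries, and 20 CpGs were listed in at least 3 embryos of each group and tested. IG-CGIΔBi had the lower mean at 15 of them, the higher mean at 3 and the same mean at 2, and the median difference was -7.14 percentage points. Some of the lower means rest on 1 IG-CGIΔP embryo. At 109540637, 109540644, 109540668 and 109540723 only clone74 embryo 3 was above 0, and at 109540850 only clone115 embryo 8. The median equals the difference at the first 2 of these CpGs. Of the 20, 0 passed a Benjamini-Hochberg adjusted p of 0.05 and 0 an unadjusted p of 0.05 in the exact two-sided permutation tests (0% of CpGs in each case), and the test on ranks also gave 0. This says little of single CpGs: at 7 of the 20 too few embryos listed the CpG for its p to pass the adjustment on its own, and at 109540497, with 3 embryos per group, p could not go below 0.1. The smallest unadjusted p was 0.116 by percent and 0.0808 by rank (exact permutation tests). At 0 CpGs (0%) were the groups free of overlap. At 10 of the 20 CpGs every IG-CGIΔBi embryo that listed the CpG was at 0, and at 2 of them every IG-CGIΔP embryo was too. The groups differ in size, so these numbers are not directly comparable. The SD over embryos was lower in IG-CGIΔBi at 16 of the 20 CpGs and higher at 2. These 16 include the CpGs named above at which a single IG-CGIΔP embryo was above 0.

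**Figure D4:**
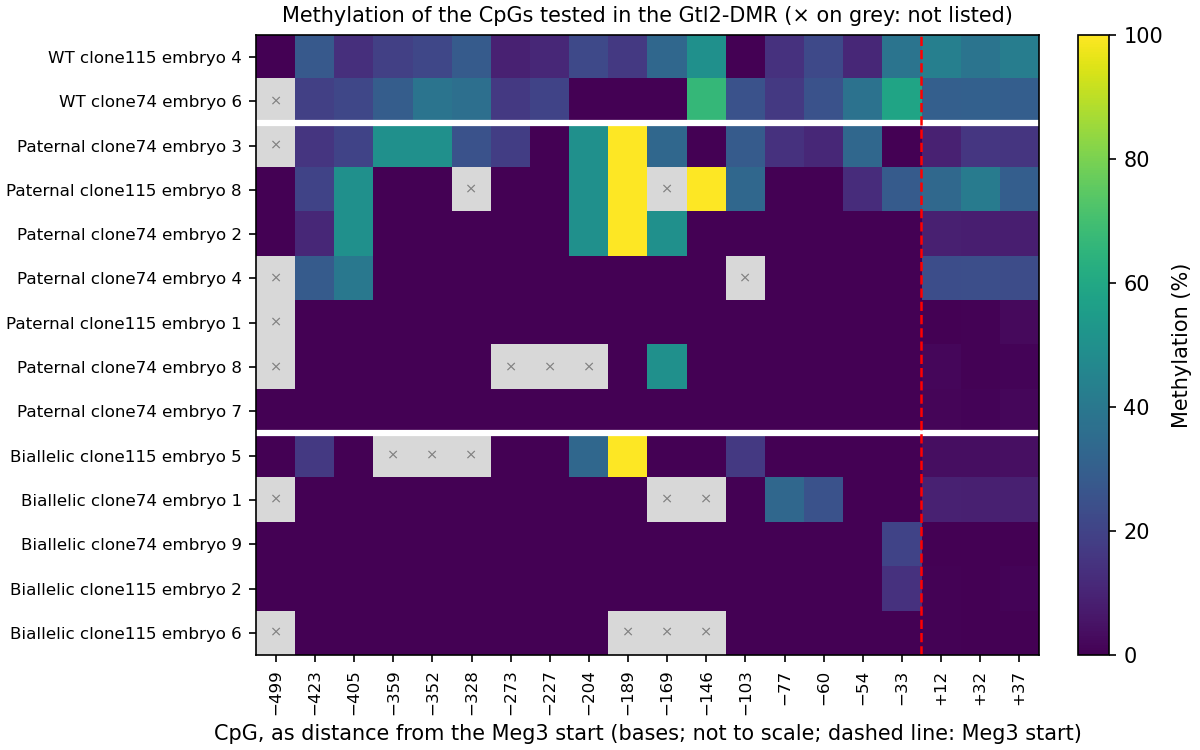
Methylation (colour, 0% to 100%) of the 20 CpGs tested (columns, in order of their distance from the Meg3 start) in WT, paternal and biallelic E18.5 embryos (rows, each group in order of level), where crosses mark CpGs that a library does not list. Most cells of the biallelic rows are at 0%, and the paternal rows range from nearly empty to values above 0 at most CpGs. The 3 columns right of the dashed line differ little within most rows, and most in paternal clone115 embryo 8.

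The largest difference, with all embryos used, was at the CpG at 109540591, 405 bases upstream of the gene. All 5 IG-CGIΔBi embryos were at 0 there. In IG-CGIΔP, clone74 embryo 2 and clone115 embryo 8 had 50%, clone74 embryo 4 had 40%, clone74 embryo 3 had 20% and the other 3 embryos were at 0. The IG-CGIΔP mean was 22.9% ± 23.6 (SD, n = 7), and the difference of -22.9 percentage points had p = 0.116 (exact two-sided permutation test, adjusted p = 0.918 over 20 CpGs). The WT mean at this CpG was 17.3% (n = 2). Without clone115 embryo 8 the difference here was -18.3 percentage points. That is smaller than the -22.2 at the CpG at 109540827, which this embryo does not list. Next came the CpG at 109540827, 169 bases upstream, where 3 IG-CGIΔBi embryos listed 0% and 3 of 6 IG-CGIΔP embryos were above 0, at 50%, 50% and 33.3% (difference -22.2 percentage points, exact permutation test, p = 0.321, adjusted p = 0.918). After it came the CpG at 109540792, 204 bases upstream, with 33.3% in 1 of 5 IG-CGIΔBi embryos, clone115 embryo 5, and 50% in 3 of 6 IG-CGIΔP embryos (difference -18.3 percentage points, exact permutation test, p = 0.318, adjusted p = 0.918).

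The CpG at 109540807, within the letters of the ZFP57 motif printed above, had the largest SD over embryos in both groups. Its values were either 0% or 100%. It was at 100% in 1 of 4 IG-CGIΔBi embryos that listed it, clone115 embryo 5, and in 3 of 7 IG-CGIΔP embryos, clone115 embryo 8 and clone74 embryos 2 and 3. In these 4 embryos the neighbouring CpG at 109540792 was also above 0, and it was at 0 in every other embryo of both groups that listed it. The SDs were 50 and 53.5 percentage points, and the difference of -17.9 percentage points had p = 1 in the exact permutation test (adjusted p = 1). It rested on single embryos: it was -42.9 without IG-CGIΔBi clone115 embryo 5, -8.33 without any 1 of the 3 IG-CGIΔP embryos at 100% and -9.52 without any 1 of the 3 IG-CGIΔBi embryos at 0. In WT the CpG at 109540807 was at 0% in clone74 embryo 6 and 16.7% in clone115 embryo 4. In IG-CGIΔM it was at 100% in clone74 embryo 5 and 33.3% in clone115 embryo 3. The depth at this CpG is not given, and values of only 0% or 100% are what few reads give. It lies close to the CpG at 109540792, and both may share reads.

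At 2 of the 20 CpGs tested no embryo of either group was above 0. The CpG at 109540497, 499 bases upstream, was at 0 in the 3 IG-CGIΔBi and 3 IG-CGIΔP embryos that listed it, and that at 109540769, 227 bases upstream, in all 5 and 6 that listed it. At the second, the WT embryos had 20% and 11.1%. Values above 0 were found in most IG-CGIΔBi embryos at the CpG at 109541007, the first inside the gene, with 9.0% in clone74 embryo 1, 3.63% in clone115 embryo 5, 0.575% in clone115 embryo 6, 0.392% in clone115 embryo 2 and 0% in clone74 embryo 9. The IG-CGIΔP embryos had from 0.234% to 33.8% there, with a median of 8.78%. The smallest of these values in either group may not reflect methylation, as said above. The means were 2.72% ± 3.80 (SD, n = 5) and 11.2% ± 12.8 (SD, n = 7), a difference of -8.52 percentage points (exact permutation test, p = 0.202, adjusted p = 0.918), against 36.8% in WT (n = 2). Without clone115 embryo 8 the difference was -4.77 percentage points.

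Opposite differences were seen at 3 neighbouring CpGs just upstream of the gene, named after their values were seen. At 109540919, 109540936 and 109540963 the IG-CGIΔBi means exceeded those of IG-CGIΔP by 4.63, 3.41 and 2.78 percentage points, within the spread in each case (exact permutation tests, p = 0.735, 0.735 and 0.682). The first pair rested on clone74 embryo 1, with 33.3% and 25%, and the last on clone74 embryo 9 with 20% and clone115 embryo 2 with 14.3%. At the last, clone115 embryo 8, with 28.6%, was the only IG-CGIΔP embryo above 0, so that without it the mean of that group would be 0 against 6.86% in IG-CGIΔBi. Between them, the CpG at 109540942, in the middle of the cAMP response element letters printed above, was at 0 in all 5 IG-CGIΔBi embryos and in 5 of 7 IG-CGIΔP embryos, with 33.3% in clone74 embryo 3 and 12.5% in clone115 embryo 8. The WT mean there was 24.3% (n = 2).

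**Figure D5:**
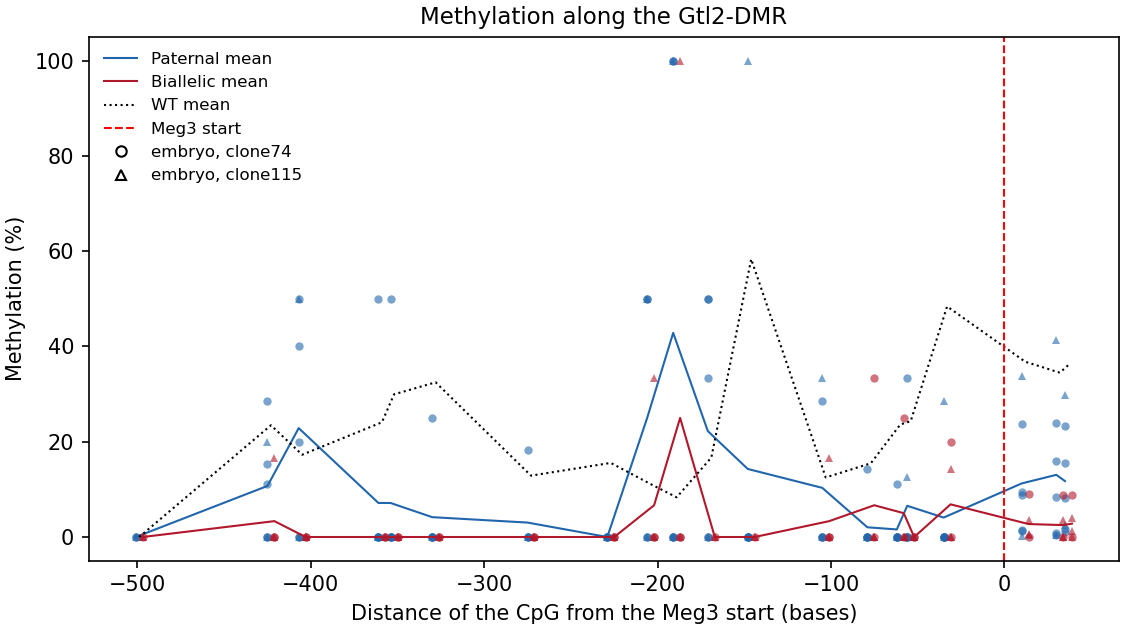
Methylation (y axis, percent) of each tested CpG against its distance from the Meg3 start (x axis, bases), with 1 point per E18.5 embryo (red biallelic, blue paternal, circles clone74, triangles clone115), lines through the group means and a dotted line for the WT mean. The red line lies at or below the blue one at 17 of 20 CpGs and crosses it at 3 CpGs within 77 bases upstream of the gene, while the points of both groups overlap throughout.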

How the data were processed

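The deposited values are the percent of methylated reads at each CpG in each library, which the authors obtained from PBAT capture reads. The submitters' processing notes name bcl2fastq 2.15.0.4, Bismark and Bowtie2 and the build mm10. The treatment of duplicates and any coverage minimum are not given in the sources used here. The percent values come without coverage, so no value could be weighted or limited by depth, and a coverage minimum could not be applied.

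Groups, clones and embryo numbers were read from the labels, and each library is a separate embryo. The labels do not say what a clone is, and it was treated as a batch. Positions from 109540400 to 109541100 of chromosome 12 were used. An embryo's level was the unweighted mean over its listed CpGs. IG-CGIΔBi and IG-CGIΔP embryos were compared with exact two-sided permutation tests of the difference of means (every split of the 12 embryos, smallest possible p = 0.00126), with Benjamini-Hochberg adjustment over 8 embryo-level tests. For the spread, deviations from each group's own centre were permuted, so that test is approximate. The parts were divided at position 109540750. CpGs listed in at least 3 embryos per group were tested one by one. The standard error of a difference is the root of the summed squared standard errors of the groups.

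The CpGs named were the 3 with the largest and the 2 with the smallest difference, the one with the largest SD in each group and the one above 0 in most IG-CGIΔBi embryos. Others were chosen after their values were seen. The groups, measures and lists were chosen with earlier results of these data known. Of the 29 listed positions, 3 inside the RefSeq promoter window (109540987, 109540988 and 109541040) are not CpGs of the reference, were at 0% in single IG-CGIΔP embryos and were kept. Listed positions outside that window, such as 109540476, were not checked against the reference. The analysis, tested on simulated data, ran in Python 3.11.15 with pandas 2.3.3 and numpy 2.4.6. Alternatives were other sets of CpGs, the median in place of the mean, the test within clones, ranks, and leaving out each embryo.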

Additional observations from a re-analysis of the deposited data

Results flagged for a closer look

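In 3 of 14 group values tested, 1 embryo lay apart from the rest of its group by Dixon's criterion. Chance meets it in about 1 of 20 groups of continuous values, a rate that does not hold for the IG-CGIΔBi values below, where the other embryos are all at 0 and any single value above 0 meets it. In IG-CGIΔBi, clone115 embryo 5 was apart both in its share of CpGs at 100%, with 5.88%, and in its 5′ level, with 4.17%, where the other 4 embryos were at 0 (gap over range 1 in both, critical value 0.71). Each of these values rests on 1 CpG of that embryo. In IG-CGIΔP, clone74 embryo 3 was apart in its 5′ level with 34.8% (gap over range 0.590, critical value 0.568), and 7 of its 8 listed CpGs in that part were above 0. Without clone115 embryo 5 the difference in the level between IG-CGIΔBi and IG-CGIΔP was -10.8 percentage points, and without clone74 embryo 3 it was -6.50. What sets these embryos apart was not tested.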

How the results depend on the processing

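The difference in the level of methylation kept its sign and stayed short of the threshold under all 21 alternatives, from -11.2 percentage points without clone74 embryo 7 to -5.50 with the CpGs inside the gene and without clone115 embryo 8, and so did the shares at 0 (16 alternatives), intermediate (16) and the 3′ level (17), and the share at 100 stayed short of it in 17, with 0 as its value at the CpGs in all 12 libraries. Left-out embryos moved the share at 0 from 11.8 to 24.4, the intermediate share from -20.1 to -9.57, the share at 100 from -4.31 to -2.0 and the 3′ level from -10.1 to -4.16 percentage points. The difference in spread ranged from -7.79 to -4.29 with an embryo left out and passed p = 0.05 without clone74 embryo 4 (-7.68, permutation test, p = 0.0346), clone74 embryo 8 (-6.91, p = 0.0498) or clone115 embryo 1 (-7.20, p = 0.0455) of the IG-CGIΔP group, with the CpGs in all 12 libraries (-5.48, p = 0.0417) and with deviations from the mean (-6.35, p = 0.0240). These p-values for the spread are approximate. The 5′ difference ranged from -13.5 to -7.71, passing without IG-CGIΔP clone74 embryo 7 or 8, and was -3.21 with the median over CpGs (exact permutation test, p = 1). The difference in the 3′ minus the 5′ level ranged from 1.05 to 7.41 with an embryo left out, was 11.7 with the CpGs in all 12 libraries (exact permutation test, p = 0.0884), and turned to -3.52 with the median and to -0.662 without position 109540476. The WT level of 26.6% moved to 28.9% with the CpGs in all 12 libraries, 25.4% with those in at least 9 and 23.6% with the median. None of the CpG-by-CpG alternatives (14) called a CpG. None of these p-values is adjusted over the alternatives, and the cause of each change was not tested. The alternatives by position 109540476, by the gene's start, by reference CpGs and for WT were chosen after seeing the data. A coverage minimum and coverage-weighted means could not be run, as the files give no coverage, and depth limits every value to an unknown degree. No paired analysis was possible because the embryo numbers name different embryos and are not shared between the genotypes of a clone.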
